A study of Mus musculus with 8 samples.

Results

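The genes described here are 10 genes of fatty acid uptake, chosen by symbol for their roles: Cd36 and its partners Lpl, Gpihbp1, Vldlr, Slc27a1, Slc27a2, Acsl1, Fabp3, Fabp4 and Fabp5. They were followed in bulk RNA-seq of brown adipose tissue (BAT) to ask whether the other uptake genes shifted where Cd36 was lower. Each symbol matched exactly 1 Ensembl gene of the 31053 in the count table, and all 10 were counted in all libraries. There were 4 libraries labelled WT and 4 labelled Cd36KO, all from C57BL6/J mice whose label gives an age of 8 weeks, and no agent or other allele is named. The label says only Cd36KO. The study describes a germline knockout and a Cd36 flox/flox x Csf1r-Cre line, in which Csf1r drives Cre in myeloid cells, and attributes its BAT transcriptome to the latter, with the age of the label in its account of that experiment and an older age at sacrifice in its methods, so adipocytes and endothelium of those mice would keep the gene. All 8 samples carry the cell type label Stromal Vascular Fraction. Transcripts of mature adipocytes were nevertheless abundant, with Adipoq at 2458 to 6294 and Ucp1 at 4235 to 12313 normalized counts per library. A normalized count is the read count of a gene divided by the library's DESeq2 median-of-ratios size factor.

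Fatty acids reach brown adipocytes along a short chain of proteins. Triglyceride-rich lipoproteins are held at the capillary wall, where lipoprotein lipase releases fatty acids, CD36 and fatty acid transport proteins bring them into the cell, acyl-CoA synthetases trap them as acyl-CoA, and binding proteins carry them through the cytosol. In BAT this supply feeds mitochondrial heat production, and macrophages use CD36 also as a scavenger receptor for lipids and vesicles.

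Some libraries stood apart before any test. Total counts ranged from 2679785 to 4097953 per library, and the 10 genes together took 1.31% to 1.48% of them in WT and 0.877% to 1.21% in Cd36KO, without overlap. That separation depended on scaling, since their summed normalized counts overlapped, at 35724 to 50443 in WT and 29738 to 38239 in Cd36KO. Across the libraries Fabp4 alone took 0.163% to 0.640% of all counts and Lpl 0.284% to 0.453%. Skeletal muscle markers, 13 of 13 counted, summed to 58205 normalized counts in WT replicate 1 and 988 to 12799 in the other WT libraries, against 354 to 8640 in Cd36KO. White fat markers, 7 of 8 counted with Hoxc10 at 0, summed to 590 in WT replicate 1 and 2642 to 3676 in the other WT libraries, against 311 to 478 in Cd36KO. Most of each sum was Nnat, at 377 in WT replicate 1, 2144 to 3105 in the other WT libraries and 245 to 403 in Cd36KO. Nnat by itself overlapped between the groups. WT replicate 1 was therefore the WT library with the most muscle and the least white fat transcript, and results are also given without it where that changed a call or moved a value by over 1.5 times. The counts of Xist were 772 to 1588 in every library and those of 4 Y-linked genes 0 to 3, although the study states that its mice were male. Fewer cells of a type and less RNA per cell cannot be told apart in such bulk samples.

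**Figure D1:**
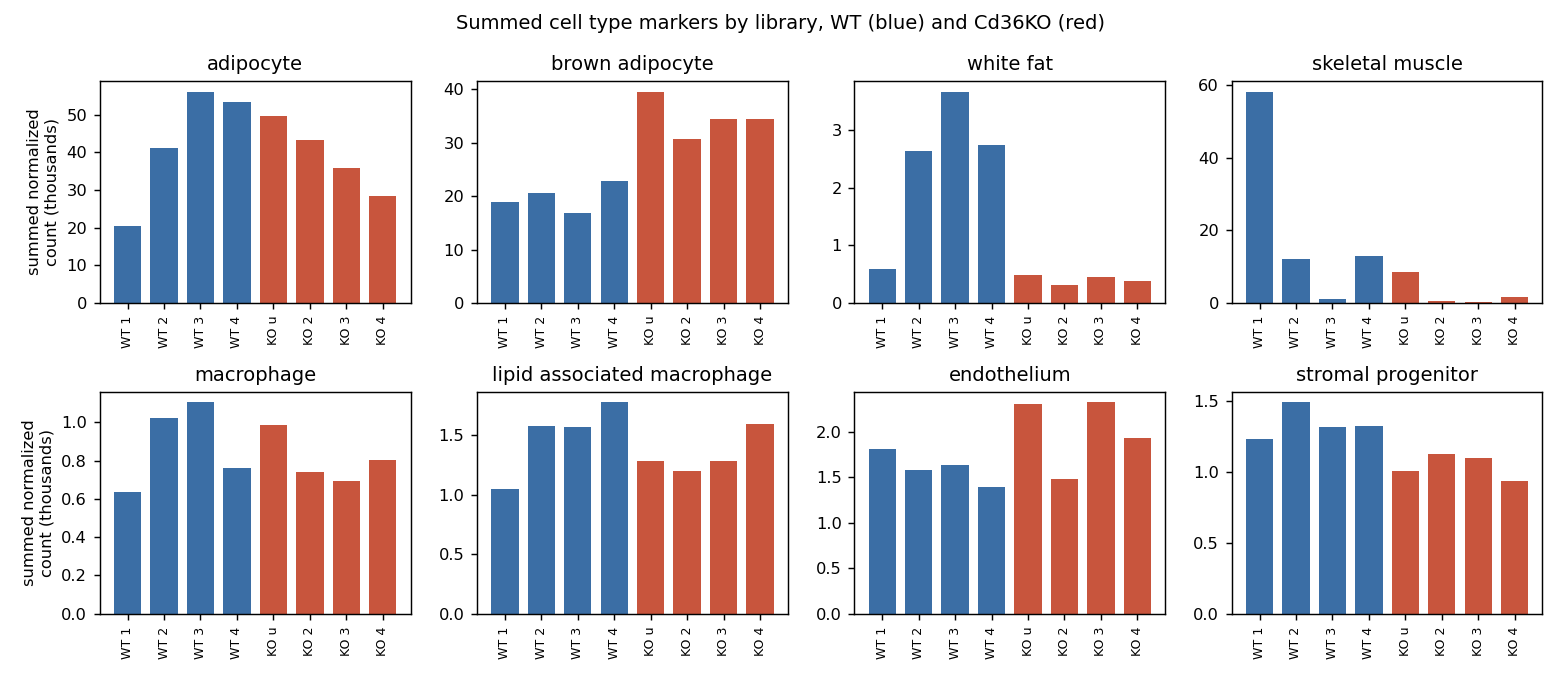
Summed normalized counts of markers of 8 cell types in each library (WT blue, Cd36KO red, KO u the unnumbered Cd36KO library, each panel with its own axis from 0). White fat markers lie at 311 to 478 in all Cd36KO libraries and at 590 in WT replicate 1, whose muscle markers reach 58205, while brown adipocyte markers lie at 16914 to 22821 in WT and 30792 to 39583 in Cd36KO.

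Of the 10 genes, 1 passed the test, Slc27a1, which was lower in Cd36KO. The test was DESeq2's Wald test with Benjamini-Hochberg adjustment over all genes and a threshold of 0.05, which called 2.95% of all 9617 genes with an adjusted p, 1.53% as lower and 1.42% as higher. The other 9 genes did not pass. The fitted log2 fold change of Cd36KO against WT was below 0 for 7 genes and above 0 for 3, with a median of -0.34 against -0.0087 over all genes with an adjusted p. At an unadjusted p below 0.05 there were 5 of the 10 genes (Cd36, Slc27a1, Acsl1, Fabp4 and Fabp5, all fitted below 0), where 15.6% of all genes lie. These figures, the median and the counts of fitted directions include Cd36, the gene named in the label, and do not describe the partners alone. The edgeR quasi-likelihood test called 0 of the 10 and 0.143% of all genes, with an unadjusted p below 0.05 for 4 of them (0.0137 for Cd36, 0.00229 for Slc27a1, 0.0129 for Fabp4 and 0.00651 for Fabp5), where 16.1% of all genes lie.

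Per-library values below are normalized counts, for WT in the order of replicates 1 to 4, and for Cd36KO with the library whose count column has no replicate number first, followed by replicates 2 to 4. Fold changes are log2 values with their standard error. The exact test is a two-sided permutation of the mean log2(normalized count + 1) over all 70 arrangements of the 8 libraries, with a smallest possible p of 0.0286.

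**Figure D2:**
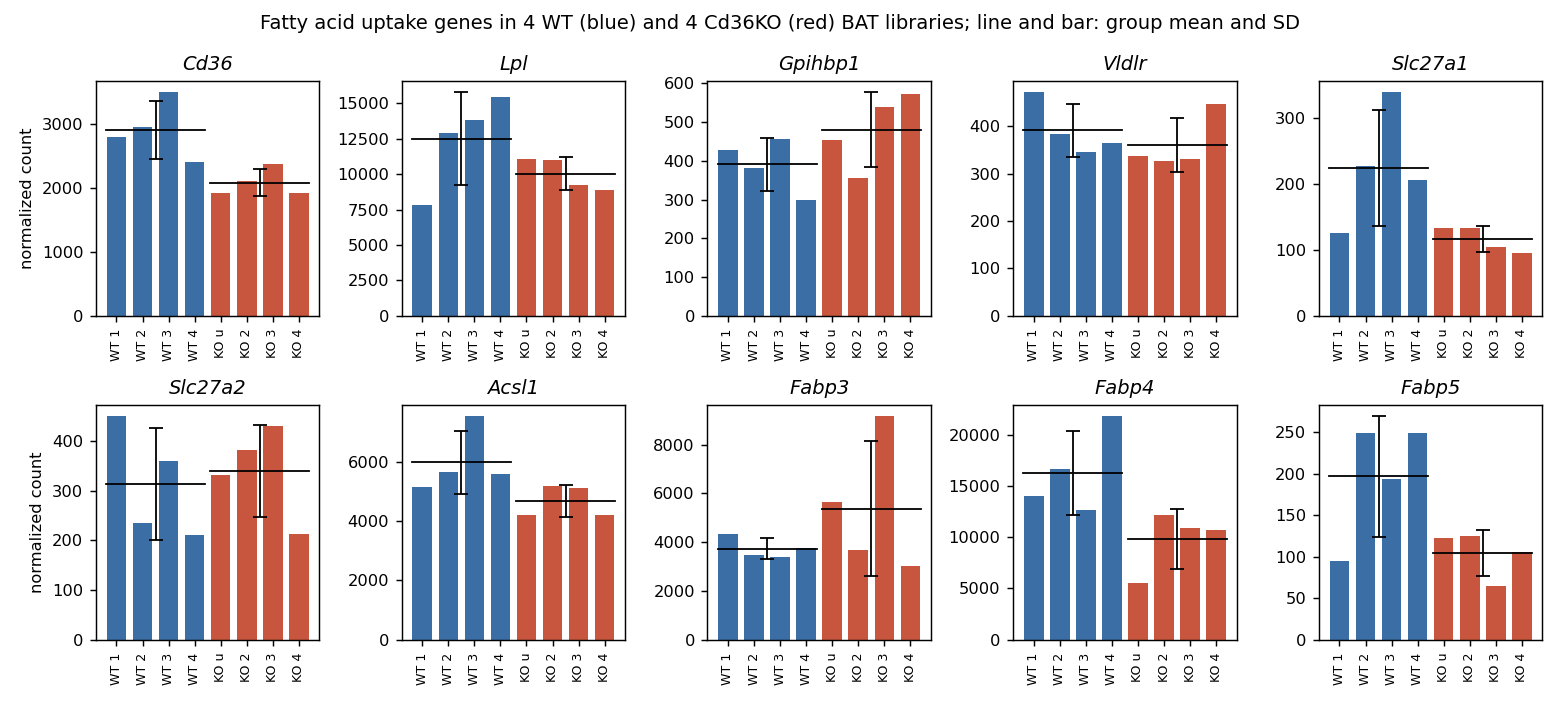
Normalized count of each of the 10 genes (1 panel per gene, own axis from 0) in the 4 WT (blue) and 4 Cd36KO (red) libraries, with a line at the group mean and an error bar of 1 SD. For Cd36 and Fabp4 the Cd36KO libraries all lie below the WT libraries, while Slc27a1 and Fabp5 in WT replicate 1 lie at the Cd36KO level and Fabp3 is high in only 2 Cd36KO libraries.

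Cd36 (ENSMUSG00000002944, GRCm38 chr5:17781690-17888801, minus strand), the fatty acid and scavenger receptor at the surface of adipocytes, endothelium and macrophages, remained well expressed. It stood at 2796, 2958, 3505 and 2412 in WT and at 1926, 2109, 2384 and 1930 in Cd36KO. The groups did not overlap, though the highest Cd36KO library, replicate 3, came close to the lowest WT library, replicate 4. Such a separation was found for 10.9% of the 5528 genes with a mean of at least 50, with all Cd36KO libraries below for 3.96% and above for 6.91%. Of the 10 genes, 2 were so separated, both below, namely Cd36, the gene named in the label, and of its partners only Fabp4. The Cd36KO mean was 71.5% of the WT mean, a fold change of -0.48 (SE 0.16, n = 4 and 4) with an adjusted p of 0.0602 in DESeq2. The exact permutation p was 0.0286, and 0.0571 with TMM scaling. With DESeq2's filter on low counts aimed at 0.05 instead of its default of 0.1, an alternative chosen after the data were seen, the adjusted p was 0.0475. Without WT replicate 4, the lowest WT library, the fold change was -0.56 and the adjusted p 0.00611, whereas without WT replicate 3, the highest, they were -0.38 and 0.288, and without the unnumbered Cd36KO library the adjusted p was 0.247. The counts are given per gene, not per exon, and cannot show whether a deleted exon is missing, so they do not check the knockout itself.

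Upstream sequence is shown for Cd36, for Slc27a1 as the gene that passed the test, and for Acsl1 as the closest to Cd36 in pattern among the 9 partners. These are the 250 bases before an annotated start site, read on the gene's strand from RefSeq on GRCm38.p6, where 6 of the 10 genes had a window. Capitals mark matches, on either strand, to AGGTCA (the core of the PPAR and RXR response element), its direct repeat with 1 base between (the full element, which holds the core), GGGCGG (the GC box bound by Sp1) and TATAAA (the TATA box).
Cd36, chr5:17835897-17836146, minus strand: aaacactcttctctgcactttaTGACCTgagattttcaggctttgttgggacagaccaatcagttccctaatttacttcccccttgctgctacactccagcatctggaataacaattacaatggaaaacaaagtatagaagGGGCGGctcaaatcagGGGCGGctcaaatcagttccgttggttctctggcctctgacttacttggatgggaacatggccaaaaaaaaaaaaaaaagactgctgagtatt
Slc27a1, chr8:71568621-71568870, plus strand: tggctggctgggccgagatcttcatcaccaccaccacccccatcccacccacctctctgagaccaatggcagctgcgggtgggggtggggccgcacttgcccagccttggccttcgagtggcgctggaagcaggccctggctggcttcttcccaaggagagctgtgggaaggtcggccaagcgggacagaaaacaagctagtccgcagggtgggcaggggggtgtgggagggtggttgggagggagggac
Acsl1, chr8:46470787-46471036, plus strand: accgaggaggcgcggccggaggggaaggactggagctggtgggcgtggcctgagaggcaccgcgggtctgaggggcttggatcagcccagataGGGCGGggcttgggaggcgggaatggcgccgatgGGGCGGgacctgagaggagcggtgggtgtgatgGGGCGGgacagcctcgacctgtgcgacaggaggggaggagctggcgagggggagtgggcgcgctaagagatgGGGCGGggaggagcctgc
The Cd36 window lies within the annotated gene, before an inner start site, and is AT-rich with 43.2% G and C. It holds the core AGGTCA on the reverse strand 228 bases before the start and GC boxes 109 and 93 bases before it, the latter in a repeated stretch. The Acsl1 window, with 72.0% G and C, holds 4 GC boxes 157, 123, 90 and 18 bases before the start, and the Slc27a1 window shown holds no match. The other 2 annotated Slc27a1 windows hold GC boxes, 1 at 139 bases and 3 at 159, 48 and 17 bases before their start, and the other Acsl1 window holds no match. Over all 32851 such windows, AGGTCA was found in 14%, GGGCGG in 32.7%, TATAAA in 12.4% and the direct repeat in 0.0335%. None of the 3 windows holds the direct repeat or TATAAA. The motifs thus differed between start sites of the same gene, and the Slc27a1 and Acsl1 windows shown are those of their most upstream start in RefSeq, while Cd36 had 1 window.

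The lipoprotein end of the chain showed no call. Lpl (ENSMUSG00000015568, chr8:68880491-68907448), the lipase that frees fatty acids from lipoprotein triglyceride, stood at 7857, 12872, 13793 and 15471 in WT and at 11051, 11011, 9197 and 8887 in Cd36KO. WT replicate 1 was the lowest of all libraries and the other WT libraries were the highest, so the groups overlapped. The fold change was -0.32 (SE 0.20), with an adjusted p of 0.479, an exact permutation p of 0.286 and a 95% interval from -0.72 to 0.08. Without WT replicate 1 it was -0.49 with an adjusted p of 0.0430, and without WT replicate 4 it was -0.20 with an adjusted p of 0.575.

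Gpihbp1 (ENSMUSG00000022579, chr15:75596628-75599481), the endothelial protein that anchors the lipase at the capillary surface, stood at 429, 381, 455 and 299 in WT and at 453, 356, 540 and 571 in Cd36KO. Only 2 of the 4 Cd36KO libraries exceeded all WT libraries. Gpihbp1 had a fold change of 0.30 (SE 0.20), with an adjusted p of 0.508, an exact permutation p of 0.257 and a 95% interval from -0.10 to 0.69. With 1 library left out it ranged from 0.19 (without WT replicate 4) to 0.42. Markers of endothelium, 10 of 10 counted, summed to 1396 to 1814 in WT and 1481 to 2323 in Cd36KO, and their highest libraries were the unnumbered Cd36KO library and Cd36KO replicate 3. Their part in the Gpihbp1 values was not tested beyond a fit with their score as a covariate, in which Gpihbp1 did not pass either (0.19, adjusted p = 0.624).

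Vldlr (ENSMUSG00000024924, chr19:27216484-27254231), a receptor that binds triglyceride-rich lipoproteins, stood at 471, 382, 346 and 364 in WT and at 336, 326, 331 and 445 in Cd36KO. Cd36KO replicate 4 lay far above the other 3 Cd36KO libraries, which were below all WT libraries. Vldlr had a fold change of -0.12 (SE 0.18), with an adjusted p of 0.818, an exact permutation p of 0.429 and a 95% interval from -0.47 to 0.23. It was -0.016 without WT replicate 1 and -0.24 without Cd36KO replicate 4.

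At the step of entry and trapping, Slc27a1 passed the test and was lower in Cd36KO, while Slc27a2 and Acsl1 did not pass. Slc27a1 (ENSMUSG00000031808, chr8:71568882-71587302) encodes the fatty acid transport protein FATP1 of fat and muscle. It stood at 125, 228, 339 and 206 in WT and at 133, 133, 104 and 95.3 in Cd36KO, from 102 to 288 raw counts. All 4 Cd36KO libraries lay well below WT replicates 2 to 4, and WT replicate 1 lay among them. The Cd36KO mean was 51.9% of the WT mean, a fold change of -0.95 (SE 0.28) with an adjusted p of 0.0331. The exact permutation p was 0.0857. Without WT replicate 1 the fold change was -1.15 and the adjusted p 0.000175, and without WT replicate 3, the highest library, they were -0.68 and 0.226. The call was also lost without WT replicate 2, the unnumbered Cd36KO library, or Cd36KO replicate 3 or 4, with adjusted p from 0.0653 to 0.118. White fat markers, of which 5 of the 5 with an adjusted p were lower in Cd36KO, had their lowest WT sum in WT replicate 1. With their score as a covariate the fold change of Slc27a1 was 0.26 (adjusted p = 0.818), but their sums do not overlap between the groups, so that white fat content and genotype cannot be told apart in such a fit.

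Slc27a2 (ENSMUSG00000027359, chr2:126552407-126588243), the transport protein FATP2, which also activates very long-chain fatty acids, stood at 450, 234, 359 and 211 in WT and at 331, 382, 430 and 214 in Cd36KO. Each group spanned nearly the whole range. Slc27a2 had a fold change of 0.11 (SE 0.28), with an adjusted p of 0.904, an exact permutation p of 0.771 and a 95% interval from -0.43 to 0.65. It was 0.34 without WT replicate 1, and its sign turned when WT replicate 2, WT replicate 4 or Cd36KO replicate 3 was left out.

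Acsl1 (ENSMUSG00000018796, chr8:46471037-46536051), the main long-chain acyl-CoA synthetase of adipocytes, stood at 5165, 5675, 7563 and 5606 in WT and at 4197, 5177, 5128 and 4218 in Cd36KO. The groups met only where WT replicate 1 came just below Cd36KO replicate 2. The fold change was -0.36 (SE 0.16), the Cd36KO mean being 78.0% of the WT mean, with an adjusted p of 0.242 and an exact permutation p of 0.0571. The 95% interval of the fold change, from -0.68 to -0.04, does not hold 0 but is not adjusted for the number of genes. With the skeletal muscle score as a covariate the fold change was -0.61 and the adjusted p 0.0286, with the white fat score -0.21 and 0.771, and without WT replicate 3 -0.23 and 0.647.

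The 3 cytosolic binding proteins did not share a fitted direction, and none passed. Fabp4 (ENSMUSG00000062515, chr3:10204088-10208576, minus strand), the abundant adipocyte form that is also made by macrophages and endothelium, stood at 14017, 16672, 12620 and 21856 in WT and at 5538, 12209, 10885 and 10719 in Cd36KO. The groups did not overlap, and the unnumbered Cd36KO library was the lowest by far. The Cd36KO mean was 60.4% of the WT mean, with a fold change of -0.73 (SE 0.25), an adjusted p of 0.0762 and an exact permutation p of 0.0286. The adjusted p was 0.0386 without WT replicate 1 and 0.0282 without Cd36KO replicate 2, but 0.161 without WT replicate 2, 0.119 without WT replicate 4 and 0.208 without the unnumbered Cd36KO library, where the fold change was -0.53.

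Fabp5 (ENSMUSG00000027533, chr3:10012548-10016607), the epidermal form, which adipocytes and macrophages also express, stood at 94.8, 249, 194 and 249 in WT and at 123, 125, 64.4 and 105 in Cd36KO. As for Slc27a1, all Cd36KO libraries lay below WT replicates 2 to 4 and WT replicate 1 lay among them. For Fabp5 the fold change was -0.92 (SE 0.31), with an adjusted p of 0.0768 and an exact permutation p of 0.114. Without WT replicate 1 it was -1.15 and the adjusted p 0.000347, without each other library the adjusted p was 0.0502 to 0.234, and with the white fat score as a covariate, under the same limit, it was 0.88 (adjusted p = 0.303). With 63 to 293 raw counts per library and a processed pseudogene, Fabp5l2, in the annotation, its counts are less certain.

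Fabp3 (ENSMUSG00000028773, chr4:130308595-130315463), the heart form, which brown fat makes under thermogenic demand, stood at 4318, 3467, 3378 and 3771 in WT and at 5649, 3673, 9175 and 3013 in Cd36KO. The unnumbered Cd36KO library and Cd36KO replicate 3 were above all WT libraries, and Cd36KO replicate 4 was below all of them. The coefficient of variation was 11.4% in WT and 51.5% in Cd36KO. For Fabp3 the fold change was 0.53 (SE 0.28), with an adjusted p of 0.359, an exact permutation p of 0.371 and a 95% interval from -0.03 to 1.08. Without Cd36KO replicate 3 it was 0.14. Fabp3 overlaps Zcchc17 on the other strand, which held 1283 counts over the 8 libraries, and the strand setting of the counting is not stated. A processed pseudogene, Fabp3-ps1, is also annotated.

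**Figure D3:**
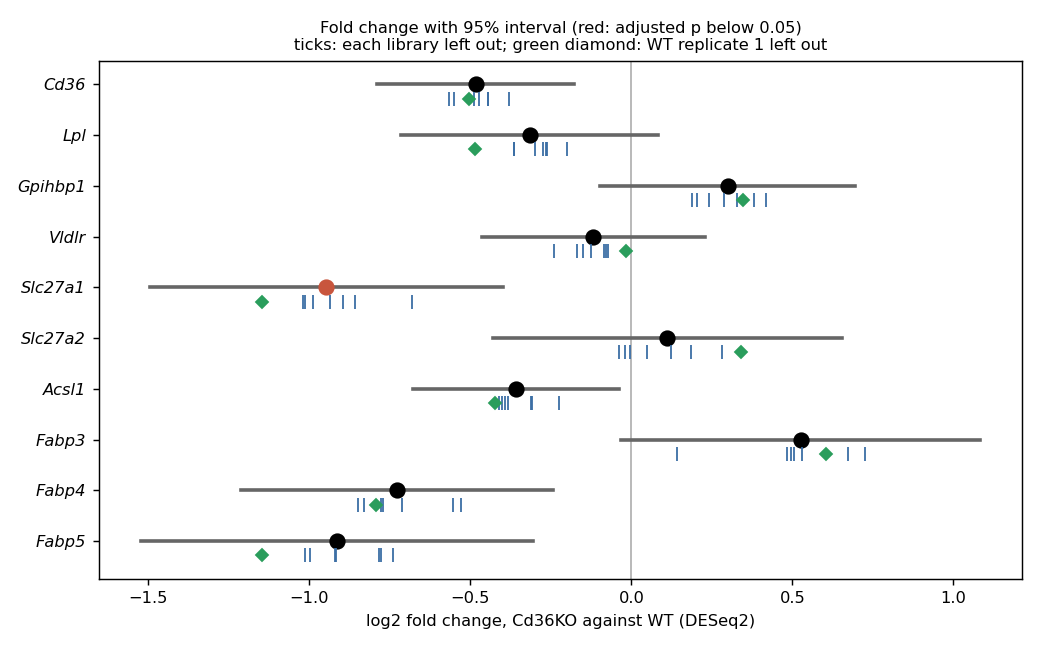
DESeq2 log2 fold change of Cd36KO against WT for the 10 genes (points, with 95% intervals as bars, red where the adjusted p is below 0.05), and the same value with each library left out (ticks, green diamond without WT replicate 1). Slc27a1 at -0.95 is the gene in red, Fabp5 at -0.92 has the widest interval, and leaving out WT replicate 1 moves Slc27a1 and Fabp5 to -1.15.

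Ratios within a library, which do not depend on scaling between libraries, were compared for 6 pairs, as differences in mean log2 ratio of counts + 0.5, by exact permutation tests with adjustment over the 6. The ratio of Fabp3 to Fabp4 was 2.23-fold higher in Cd36KO, with an exact permutation p of 0.0857 and an adjusted p of 0.343. Fabp3 made up 19.0% ± 3.94 of the counts of the 3 binding protein genes in WT and 35.1% ± 14.8 in Cd36KO libraries (n = 4 each, SD), a share not corrected for transcript length. In the single Cd36KO libraries that share was 49.9%, 22.9%, 45.6% and 21.8%, so that 2 libraries carried the difference.

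The ratio of Slc27a2 to Slc27a1 was 2.01-fold higher in Cd36KO (exact permutation p = 0.114, adjusted p = 0.343). Slc27a2 held 78.2%, 50.7%, 51.4% and 50.6% of the counts of the pair in WT and 71.4%, 74.1%, 80.5% and 69.1% in Cd36KO. WT replicates 2 to 4 were near equal parts of both genes, and WT replicate 1 was at the Cd36KO level. For Gpihbp1 to Lpl the difference was 0.57 (exact permutation p = 0.171), for Cd36 to Fabp4 0.28 (exact permutation p = 0.429), for Vldlr to Lpl 0.16 (exact permutation p = 0.6) and for Fabp5 to Fabp4 -0.10 (exact permutation p = 0.83). No ratio passed, with adjusted p from 0.343 to 0.83 over the 6 exact tests. With 1 library left out, the log2 difference ranged from 0.83 to 1.45 for Fabp3 to Fabp4 and from 0.83 to 1.45, the latter without WT replicate 1, for Slc27a2 to Slc27a1. It ranged from 0.33 (without WT replicate 4) to 0.83 (without WT replicate 1) for Gpihbp1 to Lpl, and from 0.043 (without WT replicate 4) to 0.49 (without WT replicate 3) for Cd36 to Fabp4. Vldlr to Lpl ran from -0.0049 (without Cd36KO replicate 4) to 0.46 (without WT replicate 1). Fabp5 to Fabp4 ran from -0.45 (without the unnumbered Cd36KO library) to 0.18 (without Cd36KO replicate 3) and was -0.36 without WT replicate 1.

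Around these genes, 65 other genes of fatty acid uptake were read in 6 lists, of which 58 had any count and 45 an adjusted p. Of the 45, 1 rose, 1 fell and 43 did not pass, and the median fold change was 0.05, near that of all genes. The 7 genes without a count were Apoa5, Apoc2, Acsl6, Fabp1, Fabp2, Fabp6 and Fabp7. At an unadjusted p below 0.05 there were 11 of the 45, where 15.6% of all genes lie.

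The gene that rose was Apoc1 (ENSMUSG00000040564, chr7:19689481-19692660), an apolipoprotein that inhibits lipoprotein lipase and is made by macrophages and liver. It stood at 740, 990, 693 and 1172 in WT and at 2286, 1673, 1441 and 1464 in Cd36KO, without overlap. The fold change was 0.93 (SE 0.22, adjusted p = 0.00295), and 0.85 without WT replicate 1. Markers of macrophages, 12 of 12 counted, summed to 635 to 1106 in WT and 691 to 988 in Cd36KO and overlapped, as did those of lipid-associated macrophages, 8 of 8 counted, at 1048 to 1775 and 1198 to 1593. Most of the latter sum was Ctsb, at 870 to 1591 in WT and 1022 to 1455 in Cd36KO. Only 3 of those 8 genes had an adjusted p. Trem2 had 0 to 3 raw counts per library and Spp1 0 to 9, so the sum says little about lipid-associated macrophages. Of the macrophage markers 10 had an adjusted p and 1 passed, Cd163, which was lower. Csf1r, the receptor gene whose promoter drives Cre in the conditional line, stood at 55.1 to 166 in WT and 89.8 to 166 in Cd36KO.

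The gene that fell was Lrp1 (ENSMUSG00000040249, chr10:127538161-127621148), a large endocytic receptor for apolipoprotein E-rich remnants. It stood at 187, 215, 299 and 171 in WT and at 68.0, 125, 135 and 107 in Cd36KO, without overlap. The fold change was -0.999 (SE 0.26, adjusted p = 0.0106), and -1.07 without WT replicate 1. The call was lost without WT replicate 3 (-0.81, adjusted p = 0.0968) and without the unnumbered Cd36KO library (-0.83, adjusted p = 0.0603). It was also lost with the macrophage score (adjusted p = 0.0622) or the white fat score (adjusted p = 0.211) as a covariate. Neither Apoc1 nor Lrp1 passed in edgeR, with adjusted p of 0.108 for both.

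Among the regulators of lipases, Apoc1 was the only 1 of 8 genes with an adjusted p to pass, and the median was 0.21. Their summed normalized counts overlapped between the groups, at 6694 to 13866 in WT and 11053 to 15529 in Cd36KO. Angptl4, the fasting-induced inhibitor of lipoprotein lipase, was at 728 ± 184 in WT and 751 ± 127 in Cd36KO (n = 4 each, SD), a fold change of 0.05 with an adjusted p of 0.956 and a 95% interval from -0.38 to 0.47, and its sign turned in several alternatives. In the list of lipoprotein receptors, 6 genes had a median of -0.05.

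None of the 5 other transport and activation genes with an adjusted p passed, and their median was 0.00424. Slc27a4, a transport protein of the same family as Slc27a1, was at 111 ± 17.1 in WT and 174 ± 62.7 in Cd36KO (n = 4 each, SD), with a fold change of 0.65 and an adjusted p of 0.169. Without the unnumbered Cd36KO library they were 0.39 and 0.664. With the white fat score as a covariate, which cannot be told from genotype, they were 1.57 and 0.0421. The acyl-CoA synthetase Acsl5 had a fold change of 0.75 (SE 0.57, adjusted p = 0.573), which was 1.28 without WT replicate 4 (adjusted p = 0.0131) and 0.43 without the unnumbered Cd36KO library (adjusted p = 0.877). With the skeletal muscle score as a covariate Acsl5 was at 1.43 (adjusted p = 0.0355). Other lipid binding proteins (4 genes, median -0.13), genes of CD36 trafficking and signalling (10 genes, median 0.02) and genes that control uptake (12 genes, median -0.04) held no call. Cav1, the caveolin that carries CD36 in caveolae, was at 560 ± 47.2 in WT and 436 ± 52.5 in Cd36KO (n = 4 each, SD), without overlap, with a fold change of -0.36 and an adjusted p of 0.187. Pparg, the nuclear receptor that drives adipocyte lipid uptake genes, was at 186 ± 35.4 and 129 ± 34.9 (n = 4 each, SD), with a fold change of -0.53 and an adjusted p of 0.247. Of the 39 listed genes with a mean of at least 50, groups did not overlap for 5, with Cd36KO above WT for 3 (Apoc1, Lipa and Lypla1) and below for 2 (Lrp1 and Cav1), where 10.9% of all such genes did not overlap. Lipa and Lypla1, which did not pass the test, were named after their values were seen.

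**Figure D4:**
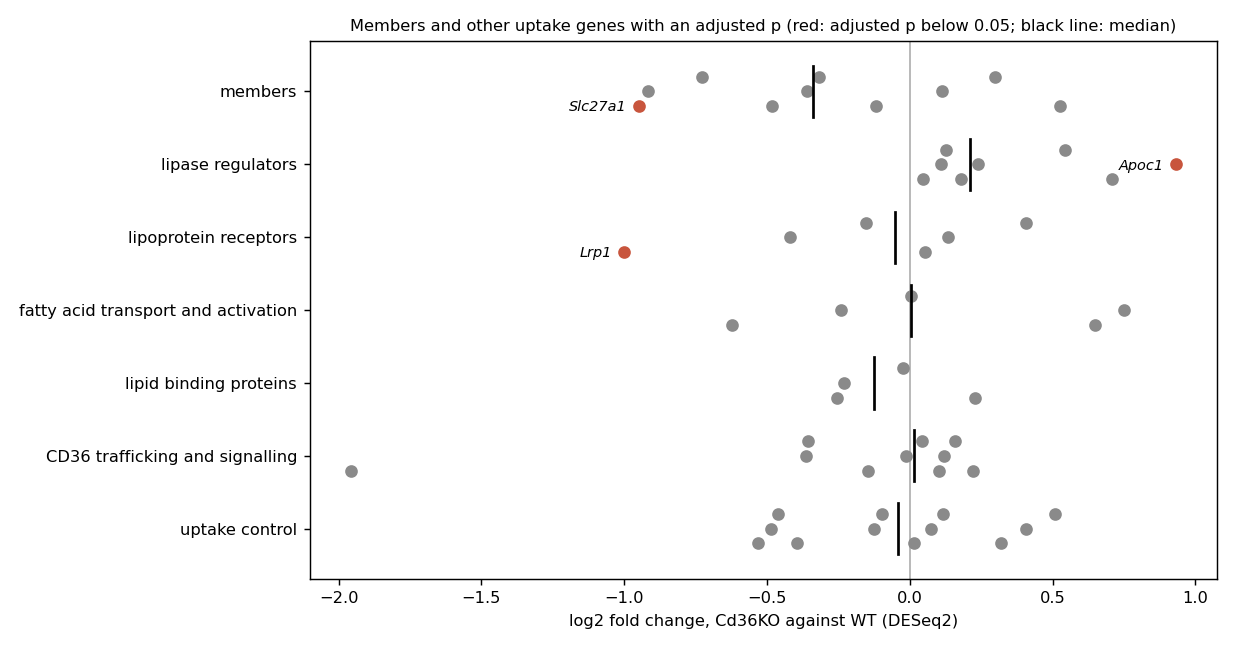
DESeq2 log2 fold change of Cd36KO against WT for the 10 genes and for the other uptake genes with an adjusted p, 1 point per gene and 1 row per list, with a black line at the median and red where the adjusted p is below 0.05. The 10 genes have their median at -0.34 and the 6 lists between -0.13 and 0.21, and the points in red are Slc27a1, Apoc1 and Lrp1.

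The pattern of Cd36 over the 8 libraries was compared with that of the 5527 other genes with a mean of at least 50, by the root mean square difference of log2(normalized count + 1), centred on each gene's mean. The gene most alike was Itsn1, an endocytic scaffold protein, at 0.0745 log2 units, followed by Kmt5b, a histone methyltransferase, at 0.0805, Ginm1 at 0.0823, Insr, the insulin receptor, at 0.0952 and Sptbn1, a spectrin, at 0.101. These libraries include the 4 in which Cd36 was lower, so likeness rests in part on the difference between groups. Among the 9 partners, Acsl1 ranked 15 of 5527, at 0.125. A flat profile would stand at 0.288 from Cd36, and the other 8 partners stood farther than that, from 0.333 for Vldlr to 0.613 for Fabp3.

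**Figure D5:**
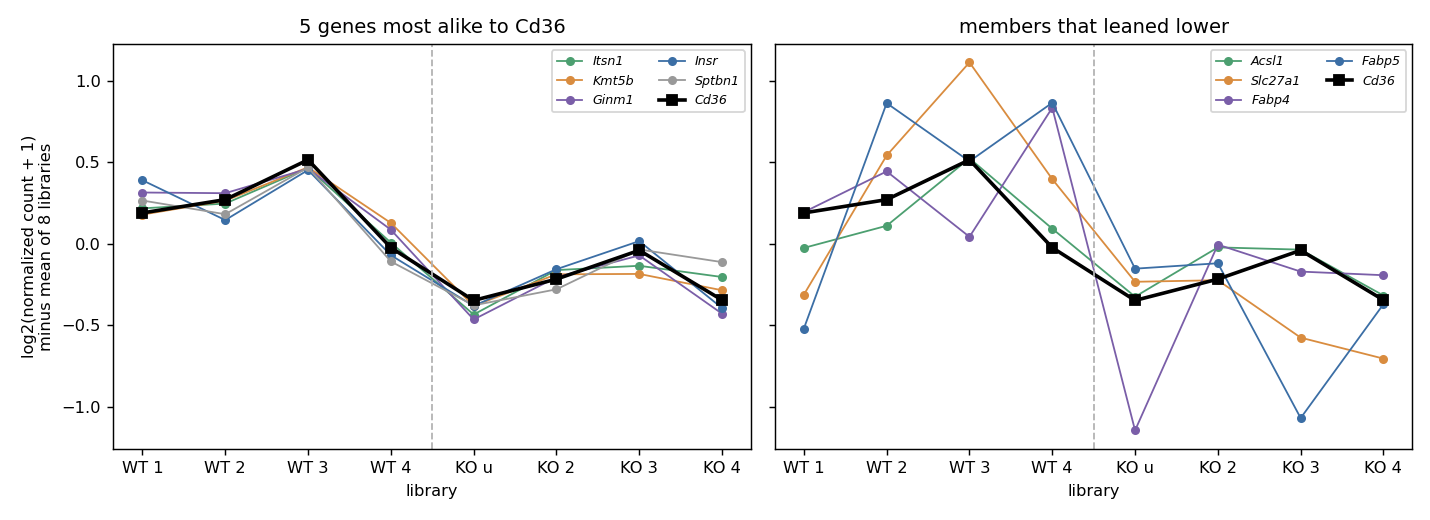
Log2(normalized count + 1) minus the mean of the 8 libraries, by library, for Cd36 (black squares) and the 5 genes most alike to it (left) and for Cd36 and 4 partners fitted below 0 (right), with a dashed line between WT and Cd36KO. Acsl1, at a root mean square difference of 0.125, follows Cd36 in most libraries, while Fabp4 drops in the unnumbered Cd36KO library and Slc27a1 and Fabp5 start low in WT replicate 1.

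Adipocyte and brown adipocyte markers gave the setting for these values. Adipocyte markers, 7 of 7 counted, summed to 20561 in WT replicate 1, 41278 to 56181 in the other WT libraries and 28480 to 49670 in Cd36KO, and 0 of 7 passed. Brown adipocyte markers, 7 of 7 counted, summed to 16914 to 22821 in WT and 30792 to 39583 in Cd36KO, and 4 of 7 passed, all higher (Ucp1, Cidea, Cox8b and Cox7a1). Stromal progenitor markers, 8 of 8 counted, summed to 1229 to 1490 and 935 to 1125, with 1 of 7 lower (Dpt). Erythrocyte markers, 5 of 5 counted, summed to 4615 to 8591 in WT and 4836 to 16259 in Cd36KO, with no call. The part of these 4 marker lists in the values of Cd36, Slc27a1, Fabp4 and Fabp5 was not tested. For skeletal muscle, a fit with the marker score as a covariate called 4 of the 10 genes, all lower in Cd36KO, with fold changes of -0.67 for Cd36, -1.19 for Slc27a1, -0.61 for Acsl1 and -1.01 for Fabp4. That fit called 2.96% of the 6071 genes with an adjusted p.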

How the data were processed

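Bulk RNA-seq of BAT in 4 WT and 4 Cd36KO libraries was analysed. According to the methods of the study, trimming was done with bbduk, alignment to mm10 with STAR 2.6.0a and counting with HTSeq-count 0.9.1, and the submitters' processing notes instead name Trimmomatic and HISAT2 beside DESeq2 and GRCm38. The table deposited by the authors holds whole-number counts per gene, not normalized. A second deposited table holds the authors' log2 values, which equal log2(count / size factor + 1) and were used only for an alternative. The annotation release and the strand setting are not given in the sources used here. The columns map to samples by name, except that 1 Cd36KO column has no replicate number.

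Genes were tested on all 31053 rows with DESeq2 1.42.0 (Wald test, genotype only, default independent filtering at 0.1, Cook's filter, R 4.3.3), with Benjamini-Hochberg adjustment and calls at an adjusted p under 0.05. Exact permutation tests enumerated all 70 arrangements in Python 3.11.15, and SciPy 1.17.1 gave the adjustment over the 6 ratios. Symbols and coordinates came from GENCODE M21 on GRCm38, coordinates are 1-based, and 30934 identifiers matched. The scripts were tested on simulated data. Alternatives were edgeR 4.0.16, limma 3.58.1, TMM and total-count factors, a filter of 10 counts in 4 libraries, filtering off, a replicate block, each library left out, and 4 marker scores as covariates. Depth limits precision for counts under about 100, and p-values measure only the spread between these libraries, since the labels name no animals, although the study gives 4 mice per group. All pairs of libraries differed by more than sampling noise (chi-square per degree of freedom at least 6.43).

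The genes and lists were chosen with earlier results of these data known. Named were the 10 genes, every listed uptake gene that passed, Angptl4, Lrp1, Slc27a4, Acsl5, Pparg and Cav1 whatever their result (another gene of the rule is not reported here), defining markers, and the 5 genes most alike to Cd36. Cd163, Dpt, Cidea, Cox8b, Cox7a1 and Hoxc10 were named after their values were seen.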

Additional observations from a re-analysis of the deposited data

Results flagged for a closer look

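Single libraries that lay far from the other 3 of their group were looked for in 64 groups of 4 values, and 3 were found, where chance gives about 3.2. Vldlr stood at 445 normalized counts in Cd36KO replicate 4, against 326 to 336 in the other Cd36KO libraries. The log2 ratio of Slc27a2 to Slc27a1 was 1.84 in WT replicate 1, against 0.03 to 0.08 in the other WT libraries. Skeletal muscle markers summed to 8640 normalized counts in the unnumbered Cd36KO library, against 354 to 1712 in the other Cd36KO libraries.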

How the results depend on the processing

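The 1 call among the 10 genes depended on the settings. Counts of called genes were 0 in edgeR, in limma, with filtering off and with the white fat, macrophage or endothelium score as covariate, 2 with filtering aimed at 0.05, 3 with total-count factors, 4 with the muscle score, and 0 to 4 with 1 library left out (4 without WT replicate 1). Of the 65 other uptake genes, where 2 were called, edgeR and limma called 0, the macrophage score left 1, the white fat score gave 12, and leaving out a library gave 1 to 5 (5 without WT replicate 1, 1 without WT replicate 3 or the unnumbered Cd36KO library). Over all genes the count went from 284 to 14 in edgeR, 3 in limma, 171 with filtering off, 787 with the white fat score, and 70 to 498 with a library left out.

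Cd36 kept its direction throughout and passed with total-count factors (-0.55, adjusted p = 0.0453), with filtering aimed at 0.05 (-0.48) and with the muscle score (-0.67, adjusted p = 0.0286), and with a library left out ranged from -0.56 to -0.38. Slc27a1 did not pass in edgeR (-0.96, adjusted p = 0.126), limma (-0.87, adjusted p = 0.363), with filtering off (-0.95, adjusted p = 0.0583), or with the macrophage (-0.62, adjusted p = 0.163) or endothelium score (-0.87, adjusted p = 0.0654), turned to 0.26 with the white fat score, and ranged from -1.15 to -0.68 with a library left out. It lost its call without WT replicate 2 or 3, the unnumbered Cd36KO library, or Cd36KO replicate 3 or 4 (adjusted p 0.0653 to 0.226). The summed white fat markers do not overlap between the groups, so this fit cannot tell them from genotype. With it Lpl turned to 0.80, Slc27a2 to -1.15, Fabp3 to -0.19 and Fabp5 to 0.88, while Gpihbp1 fell to 0.029 without a change of sign. With the muscle score Vldlr turned to 0.051, Slc27a2 to -0.017 and Angptl4 to -0.23. With a library left out, Slc27a2 ranged from -0.039 (without WT replicate 4) to 0.34 and was below 0 also without WT replicate 2 or Cd36KO replicate 3, and Angptl4 ranged from -0.13 (without WT replicate 1) to 0.13 and was below 0 also without Cd36KO replicate 3. The cause of these turns was not tested. The exact test gave a permutation p of 0.0571 for Cd36 and 0.0286 for Acsl1 with TMM scaling. No ratio changed its side of the threshold with a pseudocount of 5, and with a library left out or within numbered pairs the ratios were given no test. Within numbered pairs the log2 difference was -0.71 for Fabp5 to Fabp4, 0.54 for Vldlr to Lpl, 0.90 for Gpihbp1 to Lpl and 1.52 for Slc27a2 to Slc27a1, outside their leave-one-out ranges.

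Replicate numbers 2, 3 and 4 occur in both groups, but the correlations of same-numbered libraries' deviations were -0.13, 0.42 and 0.14, and 3 of the 6 libraries correlated best with their own number, so the numbers were not taken as pairs. With the replicate block 2 of the 10 genes were called (Slc27a1 and Fabp5), 3 in the same 6 libraries without it (also Lpl, an alternative chosen after the data were seen), and 3 and 5 of the 65, beside 221 and 262 of all genes. Lrp1 lost its call under the block (-0.87, adjusted p = 0.0546) and kept it in the same 6 libraries without it (adjusted p = 0.0228). Under the block Vldlr was 0.0042 and Angptl4 -0.062, and in the same 6 libraries without it Vldlr was 0.019 and Angptl4 -0.051.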
